A study of Homo sapiens with 13 samples.

Results

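Receptor tyrosine kinases outside the EGFR family were followed in H1975 cells kept without EGF. The set was a list of 42 genes, and a gene was taken into it where the array annotation gives one of the features its symbol. That held for 35 of the 42, out of 14861 gene symbols in all, and where a symbol had several features the one with the highest mean over the arrays was kept. H1975 is an established lung adenocarcinoma line, so all values come from 1 cell line. The cells had been starved of serum overnight before 0 h and then stayed in starvation medium. RNA was hybridised to 13 GeneChip Human Gene 2.0 ST arrays. The 0 h and 48 h groups had 3 arrays each, the 24 h group had 2, and single arrays covered 0.5, 1, 2, 4 and 6 h. EGF-stimulated cells and the times 8 and 12 h are not analysed here, and no effect of EGF is given.

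A receptor tyrosine kinase is a membrane protein that binds a ligand outside the cell, usually pairs with another receptor, and phosphorylates itself and adaptor proteins inside. MET and MST1R bind HGF and MSP, the TAM receptors AXL, TYRO3 and MERTK bind GAS6 and protein S, EPH receptors bind membrane-bound ephrins on neighbouring cells, and DDR1 and DDR2 bind collagen. In lung adenocarcinoma several of these receptors, MET and AXL among them, are known as routes by which cells can keep signalling when EGFR is blocked, and ALK, RET and ROS1 are known as drivers when fused to other genes.

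The values are SCAN scores, in which each array is standardised on its own, a score of about 0 is background, and the log base is not stated. A score was called above background where it exceeded the 0.95 quantile of 110 features of keratin-associated proteins, late cornified envelope proteins and trace amine receptors on the same array, a limit between 0.273 and 0.350. Scores of different genes come from different probes and are set only against this limit, not against each other. Time points were compared with limma over 12966 features, with Benjamini-Hochberg adjustment and a threshold of 0.05. No label says that the replicates are separate cultures, so the p-values reflect only how far these arrays scatter, which may be technical. Because RNA of whole wells was measured, fewer cells with a transcript and less of it per cell cannot be told apart.

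Replicate 1 of 0 h and the 2 h array stood apart. The 0 h replicates 2 and 3 correlated with each other at r = 0.996 across features, and replicate 1 with them at 0.984 and 0.986. The 2 h array correlated with that replicate at 0.994, but with the 1 h and 4 h arrays at 0.984 and 0.987, which correlated with each other at 0.996. Including replicate 1, the median replicate SD of the 0 h group was 0.0564, and 0.0297 when it was left out, against 0.0285 at 24 h and 0.0330 at 48 h. Differences are given over all 13 arrays and again over the 11 arrays without these, a choice that follows the study's own code. The paper reports possible outlier arrays and the exclusion of those affected, without naming them. Whether any of the 13 was among them is not stated. Of 8 lung adenocarcinoma epithelium markers 7 had a feature, and all 7 were above background on all 13 arrays. Their mean score was 1.54 at 0 h and 1.80 at 48 h, with 1 of the 7, NAPSA, called, and the part of this shift in the results was not tested. Of the endothelial markers 5 of 6 had a feature, 4 of them at background on every array, and CDH5 above it on 4 arrays. Both fibroblast markers with a feature were at background on every array. Of 2 blood cell markers with a feature, CD68 was above background on all arrays and LYZ on none.

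The 35 receptors fell into 3 classes. A first class of 15 was above background on all 13 arrays, namely MET, MST1R, AXL, MERTK, IGF1R, INSR, DDR1, ROR1, RYK, PTK7, EPHA1, EPHA2, EPHA4, EPHB3 and EPHB4. KDR was above it on 12 arrays, TYRO3 on 10 and FGFR4 on 8. The other 17 were above it on none, namely ALK, LTK, FGFR1, FGFR2, FGFR3, KIT, FLT1, FLT4, TIE1, RET, DDR2, ROR2, EPHA3, EPHA5, EPHA7, EPHB1 and EPHB6. Of these 17, LTK, KIT, FLT1, FLT4, TIE1, EPHA3, EPHA5 and EPHB1 had no score over 0 on any array and were left out of the tests by the filter, which left 27 tested receptors. TEK, PDGFRA, PDGFRB, NTRK2, NTRK3, EPHB2 and ROS1 had no feature under their own symbol in the annotation.

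**Figure D1:**
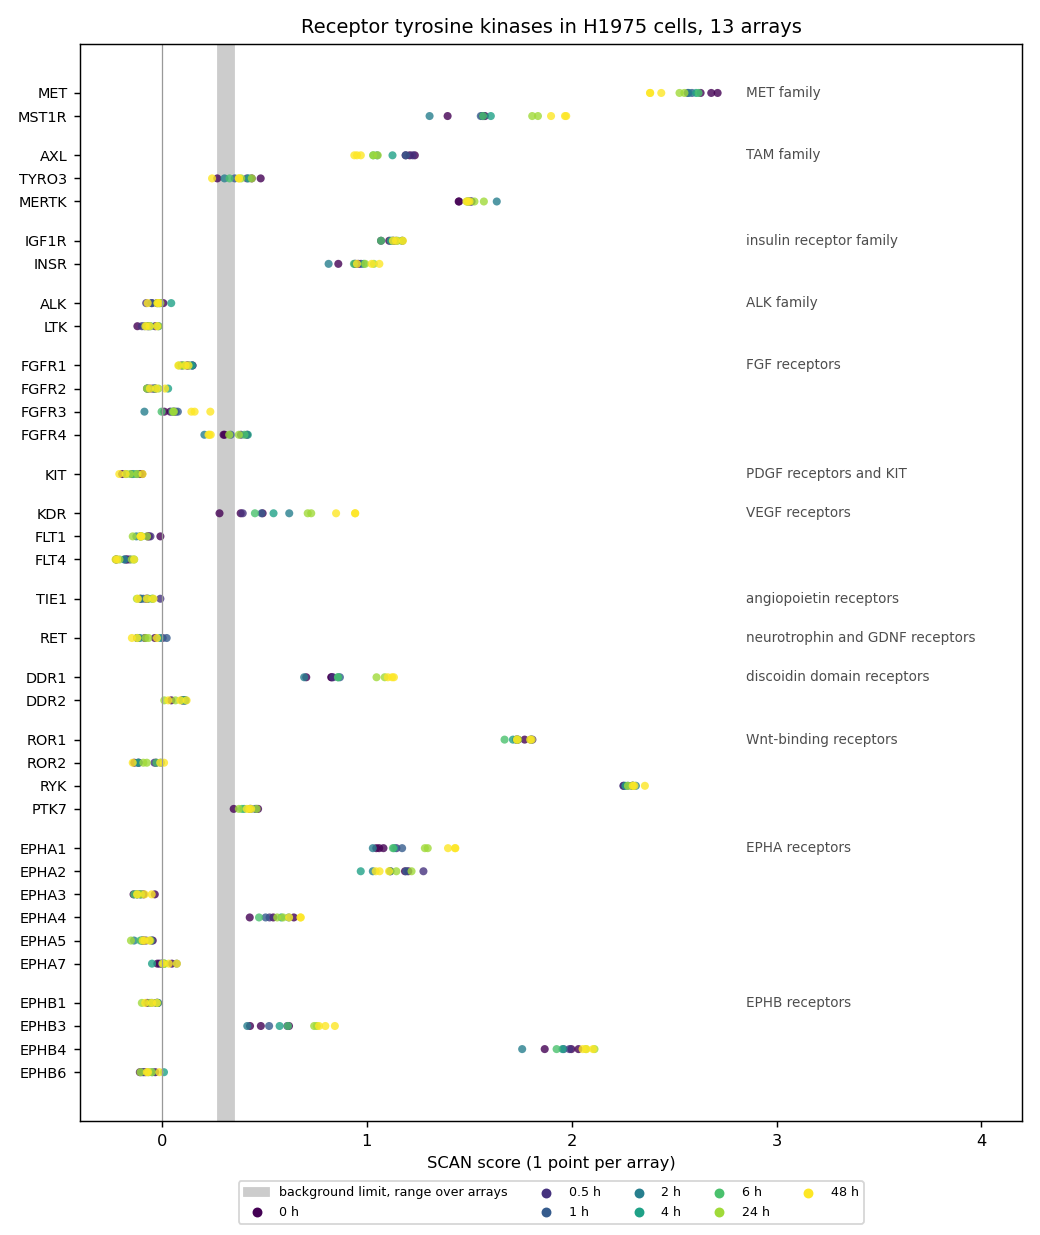
SCAN scores of the 35 receptors with a feature, 1 point per array coloured by time, grouped by family. The grey band spans the background limit of the 13 arrays, from 0.273 to 0.350, and 15 receptors lie above their array's limit on every array while 17 never exceed it. Positions of different receptors are not comparable with each other.

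Between 0 h and 48 h, 6 receptors rose and 2 fell. Neither group was given EGF, and both are taken to have lacked serum. The groups differ in time, and the conditions that changed with time cannot be told apart. KDR, MST1R, EPHA1, DDR1 and EPHB3 rose, by 0.292 to 0.527 score units, and FGFR3 rose by 0.143 within background. MET and AXL fell, by 0.273 and 0.257. The 8 called are 29.6% of the 27 tested, against 19.6% of all tested features. Among the 15 receptors above background on all arrays 6 were called, against 28.0% of the 7636 features of that kind. The median difference of the 27 was 0.0319, against -0.00156 over all tested features. Over 11 arrays 12 of the 27 were called, against 27.5% of all features. The 12 held all 8 and in addition EPHA4, higher at 48 h, and TYRO3, FGFR4 and EPHA2, lower at 48 h.

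**Figure D2:**
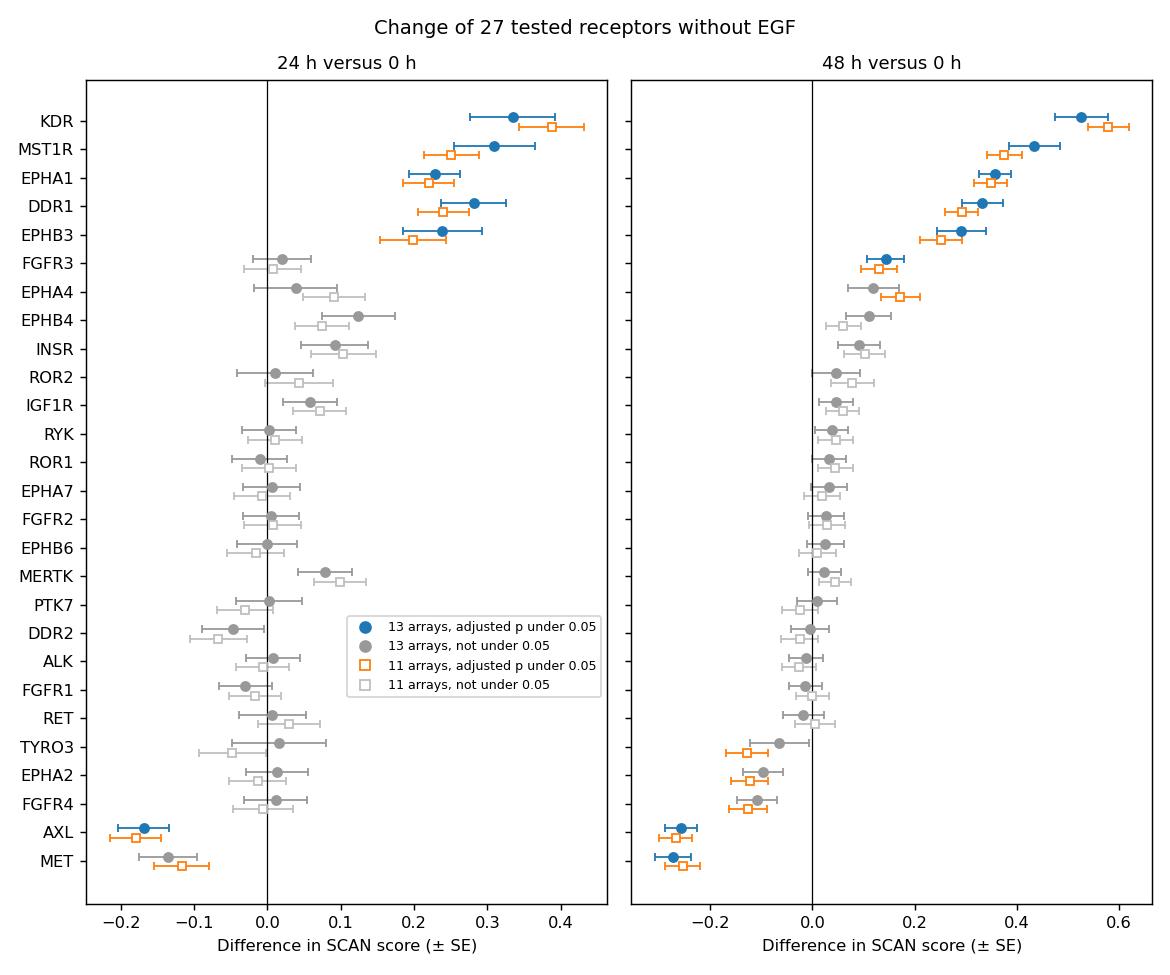
Difference in SCAN score from 0 h, with its standard error from limma, for the 27 tested receptors at 24 h (left) and 48 h (right). Filled circles are from all 13 arrays and open squares from 11 arrays, coloured where the adjusted p is under 0.05. At 48 h 5 receptors lie at or above 0.292 over 13 arrays, and AXL and MET lie at -0.257 and -0.273.

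Of the MET family, the receptors for HGF and MSP, the pair moved in opposite directions. MET scored 2.71, 2.63 and 2.68 at 0 h in replicates 1, 2 and 3, 2.57, 2.59, 2.57, 2.61 and 2.62 at 0.5, 1, 2, 4 and 6 h, 2.55 and 2.53 at 24 h, and 2.44, 2.38 and 2.38 at 48 h. All 48 h arrays were below every earlier array. MET fell by 0.273 at 48 h (SE 0.0351, limma adjusted p = 0.000334), and by 0.254 over 11 arrays.

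MST1R, also called RON, scored 1.39, 1.58 and 1.56 at 0 h, 1.57, 1.56, 1.31, 1.61 and 1.57 at 0.5, 1, 2, 4 and 6 h, 1.81 and 1.84 at 24 h, and 1.97, 1.90 and 1.97 at 48 h. The scores were level to 6 h apart from the lower 0 h replicate 1 and 2 h array, and every 24 h and 48 h array was above all earlier ones. MST1R rose by 0.310 at 24 h (SE 0.0554, limma adjusted p = 0.00892) and by 0.435 at 48 h (SE 0.0496, adjusted p = 0.000143). Over 11 arrays the 48 h rise was 0.376. A second feature annotated to MST1R was near background, with means of 0.103 at 0 h, 0.121 at 24 h and 0.239 at 48 h. Of the ligands, HGF was at background on all arrays, and MST1, the gene of MSP, was above it on 7 arrays with a difference of 0.00795 (SE 0.0565, adjusted p = 0.95).

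The TAM receptors help clear dying cells and dampen inflammation in other tissues, and AXL marks mesenchymal-like cancer cells. AXL scored 1.19, 1.23 and 1.21 at 0 h, 1.22, 1.19, 1.05, 1.13 and 1.03 at 0.5, 1, 2, 4 and 6 h, 1.03 and 1.05 at 24 h, and 0.952, 0.970 and 0.939 at 48 h. From 2 h on every array was below the 0 h arrays, and the 48 h arrays were the lowest. AXL fell by 0.169 at 24 h (SE 0.0350, limma adjusted p = 0.0170) and by 0.257 at 48 h (SE 0.0313, adjusted p = 0.000224). The lower scores at 4 h and 6 h each rest on 1 array, and their mean did not pass the test.

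MERTK scored between 1.45 and 1.63, with the highest value on the 2 h array. Its 48 h difference was 0.0236 (SE 0.0332, adjusted p = 0.699). TYRO3 lay around the limit, between 0.244 and 0.482. Its difference was -0.0650 (SE 0.0576, adjusted p = 0.505) over 13 arrays and -0.128 (SE 0.0420, adjusted p = 0.0341) over 11, without 0 h replicate 1, which was at 0.270. The ligand PROS1, which is protein S, was above background on all arrays, with a 48 h difference of 0.128 (SE 0.0521, adjusted p = 0.122) over 13 arrays and 0.191 (adjusted p = 0.000795) over 11. GAS6 was at background on all arrays.

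EPHA1 is a receptor of the EPHA class, whose usual ligands are the GPI-anchored ephrin-A proteins, and it is found mostly on epithelia. It scored 1.05, 1.06 and 1.08 at 0 h, 1.14, 1.17, 1.03, 1.13 and 1.13 at 0.5, 1, 2, 4 and 6 h, 1.28 and 1.30 at 24 h, and 1.40, 1.43 and 1.43 at 48 h. The replicates of each time point were close together, and the 0, 24 and 48 h groups did not overlap. EPHA1 rose by 0.228 at 24 h (SE 0.0347, limma adjusted p = 0.00435) and by 0.357 at 48 h (SE 0.0310, adjusted p = 2.25e-05). Of all the receptors tested it had the smallest adjusted p at 48 h, and the difference over 11 arrays was 0.349.

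EPHB3, a receptor of the EPHB class that sorts epithelial cells in the gut, scored 0.430, 0.482 and 0.620 at 0 h. It then scored 0.612, 0.523, 0.416, 0.574 and 0.615 at 0.5, 1, 2, 4 and 6 h, 0.756 and 0.743 at 24 h, and 0.797, 0.844 and 0.766 at 48 h. The 0 h replicates spread widely, yet all 24 h and 48 h arrays were above all earlier ones. EPHB3 rose by 0.239 at 24 h (SE 0.0538, limma adjusted p = 0.0246) and by 0.292 at 48 h (SE 0.0481, adjusted p = 0.00178). The 24 h call was lost without 0 h replicate 2, without either 24 h array, with quantile normalisation, median centring or the replicate number as a block, and when only the time points compared were fitted.

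EPHA2, often abundant in carcinoma cells, scored 1.12, 1.19 and 1.20 at 0 h, 1.28, 1.19, 1.03, 0.970 and 1.11 at 0.5, 1, 2, 4 and 6 h, 1.14 and 1.22 at 24 h, and 1.11, 1.06 and 1.04 at 48 h. The lowest array was that of 4 h, and the 48 h arrays lay below all 0 h arrays by a small margin at 0 h replicate 1. The difference at 48 h was -0.0968 (SE 0.0382, adjusted p = 0.111), and over 11 arrays EPHA2 fell by 0.123 (SE 0.0354, limma adjusted p = 0.0171).

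EPHA4, which binds ephrins of both classes, scored 0.643, 0.428 and 0.543 at 0 h, 0.525, 0.506, 0.619, 0.582 and 0.474 at 0.5, 1, 2, 4 and 6 h, 0.562 and 0.591 at 24 h, and 0.620, 0.677 and 0.676 at 48 h. Here 0 h replicate 1 and the 2 h array were the highest before 48 h, and replicate 1 overlapped the 48 h arrays. EPHA4 differed by 0.120 at 48 h (SE 0.0503, adjusted p = 0.134), and by 0.172 (SE 0.0386, limma adjusted p = 0.00364) over 11 arrays. EPHB4 scored between 1.76 and 2.11, and its difference at 48 h was 0.110 (SE 0.0447, adjusted p = 0.120) over 13 arrays and 0.0607 (SE 0.0335, adjusted p = 0.209) over 11.

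DDR1, the collagen receptor of epithelial cells, scored 0.704, 0.828 and 0.826 at 0 h, 0.835, 0.868, 0.694, 0.860 and 0.859 at 0.5, 1, 2, 4 and 6 h, 1.05 and 1.09 at 24 h, and 1.10, 1.13 and 1.12 at 48 h. The scores were level to 6 h on the other arrays, and 0 h replicate 1 and the 2 h array were the lowest. DDR1 rose by 0.281 at 24 h (SE 0.0447, limma adjusted p = 0.00520) and by 0.333 at 48 h (SE 0.0400, adjusted p = 0.000205). Each of the 4 features annotated to DDR1 had a higher mean at 48 h than at 0 h, from 0.786 to 1.12, from 0.713 to 1.05 on a pair of features with identical values, and from 0.680 to 1.01. These features are not independent measurements. DDR2, the collagen receptor of mesenchymal cells, was at background on all arrays.

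KDR, the main VEGF receptor of endothelium, had the largest rise of the 27 tested receptors. It scored 0.491, 0.281 and 0.384 at 0 h, 0.394, 0.486, 0.621, 0.544 and 0.453 at 0.5, 1, 2, 4 and 6 h, 0.711 and 0.728 at 24 h, and 0.850, 0.943 and 0.942 at 48 h. The 0 h arrays spread around the limit, and all 24 h and 48 h arrays were above all earlier ones. KDR rose by 0.335 at 24 h (SE 0.0579, limma adjusted p = 0.00775) and by 0.527 at 48 h (SE 0.0518, adjusted p = 5.36e-05), and by 0.579 at 48 h over 11 arrays. Of the endothelial markers, the mean score was 0.0214 at 0 h and -0.0192 at 48 h, and CDH5 fell by 0.164 (limma adjusted p = 0.00743) from a mean of 0.251 to 0.0869, both within background. FLT1 and FLT4, the other VEGF receptors, and TIE1, an orphan receptor of endothelium, were at background throughout.

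**Figure D3:**
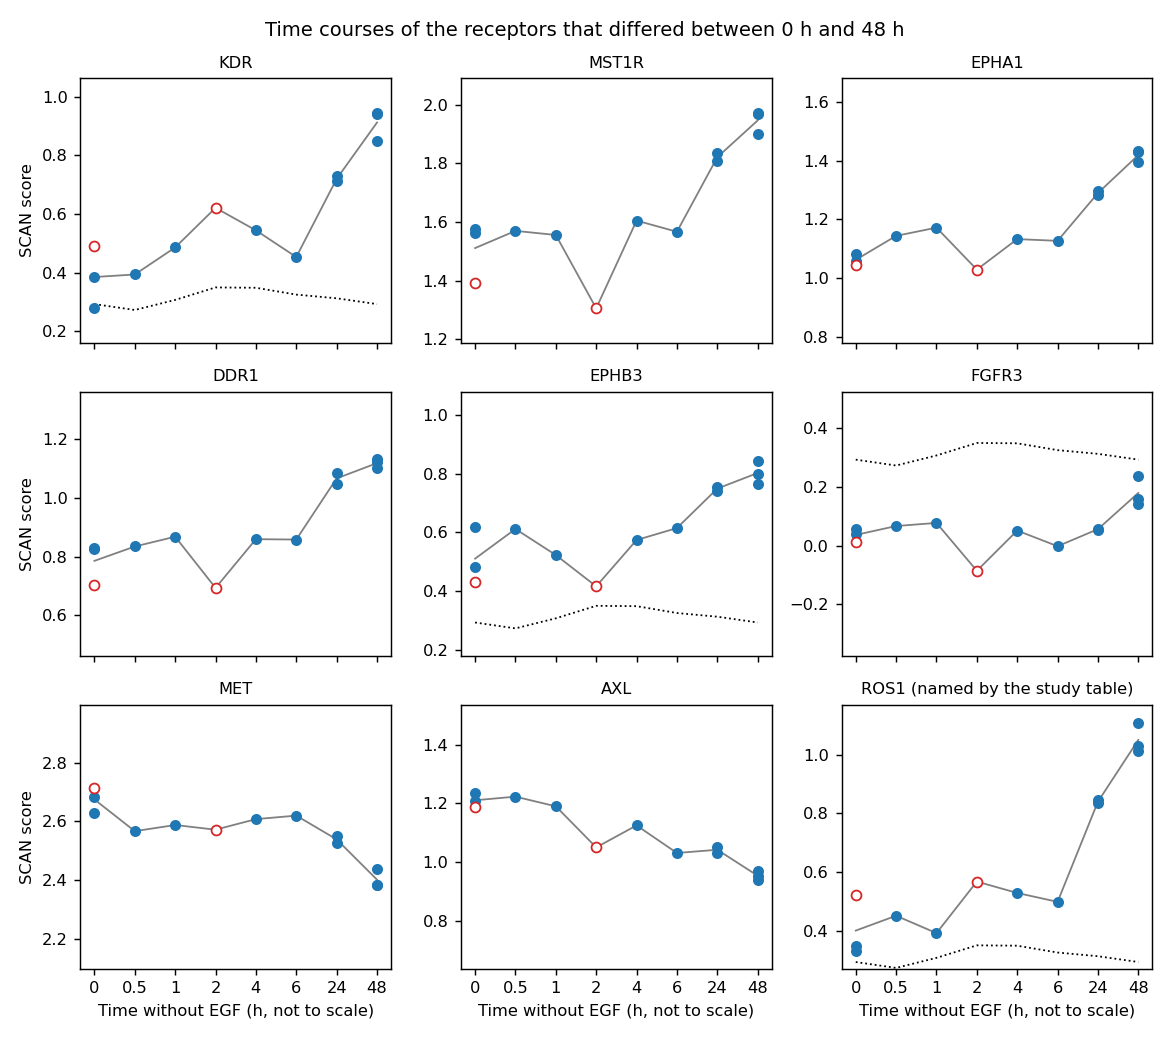
SCAN score against time (not to scale) for the 8 receptors called at 48 h over 13 arrays and for the feature named ROS1. Points are arrays, the line joins time point means, the dotted line is the mean background limit where it falls in the panel, and open red circles are 0 h replicate 1 and the 2 h array. All panels span the same number of score units. Most of each change lies after 6 h, except in AXL, and FGFR3 stays under the limit.

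Of the growth factor receptors of the insulin and FGF families, FGFR3 alone passed the test over 13 arrays. IGF1R, the receptor of IGF1 and IGF2, scored between 1.07 and 1.18, and INSR between 0.813 and 1.06. At 48 h IGF1R differed by 0.0456 (SE 0.0329, adjusted p = 0.398) and INSR by 0.0905 (SE 0.0410, adjusted p = 0.164), and neither passed over 11 arrays. FGFR4, a receptor of FGF19 in liver, scored between 0.207 and 0.419, and its 48 h arrays, at 0.238, 0.227 and 0.231, were below the limit. It differed by -0.109 (SE 0.0385, adjusted p = 0.0779), and over 11 arrays by -0.126 (SE 0.0375, limma adjusted p = 0.0211). FGFR3 scored 0.0111, 0.0578 and 0.0402 at 0 h and 0.143, 0.236 and 0.159 at 48 h. It rose by 0.143 (SE 0.0354, limma adjusted p = 0.0168) without leaving background, and the call was lost without 48 h replicate 2. FGFR1 and FGFR2 were at background, with scores of at most 0.149 and 0.0300.

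The Wnt-binding receptors ROR1 and RYK and PTK7, a related pseudokinase, were above background on every array and did not pass the test at 48 h. ROR1 scored between 1.67 and 1.81, RYK between 2.25 and 2.36, and PTK7 between 0.350 and 0.469. Their 48 h differences were 0.0330 (SE 0.0335), 0.0374 (SE 0.0330) and 0.00904 (SE 0.0400), and the adjusted p-values lay at 0.569, 0.503 and 0.916. ROR2 was at background on all arrays, as were RET, a GDNF receptor, ALK, LTK and KIT, the receptor of stem cell factor. The highest score was 0.0227 for RET, 0.0449 for ALK, -0.0166 for LTK and -0.0949 for KIT, which is under the limit in each case. KITLG, the gene of stem cell factor, was above background on all arrays, between 1.33 and 1.62, with a 48 h difference of -0.0386 (SE 0.0507, adjusted p = 0.676) over 13 arrays and of 0.0226 (adjusted p = 0.688) over 11.

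ROS1, an orphan receptor in most tissues and a fusion driver in lung adenocarcinoma, is described apart and enters no count. The annotation gives no symbol for its feature, which the study's result table names ROS1 and also ties to the neighbouring gene GOPC. The feature scored 0.520, 0.349 and 0.332 at 0 h, 0.451, 0.391, 0.567, 0.528 and 0.498 at 0.5, 1, 2, 4 and 6 h, 0.844 and 0.835 at 24 h, and 1.01, 1.03 and 1.11 at 48 h. Replicate 1 was the highest of the 0 h arrays and the 2 h array the highest before 24 h, and all 24 h and 48 h arrays were above them. The feature rose by 0.440 at 24 h (SE 0.0571, limma adjusted p = 0.00206) and by 0.650 at 48 h (SE 0.0511, adjusted p = 1.15e-05). GOPC has a feature of its own, which differed by -0.000794 at 48 h (SE 0.0613, adjusted p = 0.996), and by 0.0790 over 11 arrays (adjusted p = 0.129).

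At 24 h, 6 of the 27 tested receptors were called, MST1R, KDR, DDR1, EPHA1 and EPHB3 upwards and AXL downwards, against 7.70% of all tested features. These comparisons share the 0 h arrays with those at 48 h. MET differed by -0.136 at 24 h (SE 0.0392, adjusted p = 0.0652), and over 11 arrays, where 17.7% of all features were called, it was the seventh receptor with -0.117 (adjusted p = 0.0438). With 24 h replicate 1 left out DDR1 and EPHA1 were still called, against 1.77% of all features, and with 24 h replicate 3 left out 0 receptors were, against 0.941%. Between 24 h and 48 h 0 of the 27 were called over 13 arrays against 2.83% of all features, with 8 (29.6%) at an unadjusted p under 0.05 against 13.8% of all features. Over 11 arrays 5 were called, KDR by 0.192, MST1R by 0.125, EPHA1 by 0.129 and FGFR3 by 0.123 upwards and MET by -0.137 downwards, against 10.5% of all features.

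Before 24 h no receptor passed either of the tests made, and the 2 h array entered no comparison. The times set against 0 h have a single array each, so the spread in these tests is that of the time points with replicates. For the mean of 0.5 h and 1 h against 0 h, and for the mean of 4 h and 6 h against 0 h, limma called 0 of 27 over 13 arrays, and 0 of all 12966 features (0%). In each, 2 receptors (7.41%) had an unadjusted p under 0.05, against 9.08% of all features in the earlier comparison and 4.84% in the later. Over 11 arrays it again called 0 of 27, against 0.285% and 0.185% of all features, with 3 in each (11.1%) at an unadjusted p under 0.05, against 16.5% and 12.8%. The receptor with the smallest adjusted p in the earlier of these comparisons was EPHA1, at 0.0959 (SE 0.0347, adjusted p = 0.494).

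The window of 250 bases before the annotated start is shown for EPHA1 and KDR, which rose, for ROS1, and for MET, which fell. The sequences are those of RefSeq on GRCh38.p14, read 5′ to 3′ on the strand of the gene, at chr7:143408857-143409106, minus strand for EPHA1, chr4:55125596-55125845, minus strand for KDR, chr6:117425943-117426192, minus strand for ROS1 and chr7:116671946-116672195, plus strand for MET. Capitals mark a match to the EGR motif GCGNGGGCG, found on either strand.
EPHA1: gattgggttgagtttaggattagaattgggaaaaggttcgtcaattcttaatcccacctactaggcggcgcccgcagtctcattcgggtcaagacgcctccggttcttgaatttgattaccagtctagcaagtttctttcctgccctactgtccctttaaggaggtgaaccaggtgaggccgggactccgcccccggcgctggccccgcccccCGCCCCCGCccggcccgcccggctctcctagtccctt
KDR: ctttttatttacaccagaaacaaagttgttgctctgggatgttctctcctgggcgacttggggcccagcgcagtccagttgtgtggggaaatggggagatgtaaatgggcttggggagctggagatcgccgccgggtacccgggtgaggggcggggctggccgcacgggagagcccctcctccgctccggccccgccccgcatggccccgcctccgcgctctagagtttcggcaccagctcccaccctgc
ROS1: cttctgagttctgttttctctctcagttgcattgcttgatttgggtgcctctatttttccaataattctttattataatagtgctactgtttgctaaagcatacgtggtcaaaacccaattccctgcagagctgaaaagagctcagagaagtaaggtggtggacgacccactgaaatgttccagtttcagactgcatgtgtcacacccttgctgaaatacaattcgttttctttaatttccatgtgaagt
MET: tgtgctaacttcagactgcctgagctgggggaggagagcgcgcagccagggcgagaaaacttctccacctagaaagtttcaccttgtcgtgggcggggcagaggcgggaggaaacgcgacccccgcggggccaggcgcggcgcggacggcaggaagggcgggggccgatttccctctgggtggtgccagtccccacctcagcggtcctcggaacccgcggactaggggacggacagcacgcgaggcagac

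The windows differ in base composition. G and C make up 59.2% of that of EPHA1, 65.2% of KDR and 68.4% of MET, but 40% of ROS1, against a median of 58% over 27305 promoters. They hold 17, 17, 24 and 3 CpG pairs in that order, against a median of 11. Motifs were searched in windows of this length, each before a single annotated start per gene. Other starts of a gene were not searched. The AP1 motif TGANTCA, on both strands, occurs in 6.60% of the windows. The forkhead motif GTAAACA, also read on both strands, occurs in 2.98%. EGR matches, again on both strands, occur in 8.25%. The TATA motif TATAAA was read on the gene strand only and occurs in 7.17%. Among the 34 receptors with a window, ROS1 included, the AP1 motif was found in TYRO3, the EGR motif in EPHA1, FGFR2, FGFR3, FLT1, RET and ROR2, the TATA motif in FLT1 and the forkhead motif in none. In EPHA1 the match starts 37 bases before the annotated start. Of the other receptors that rose at 48 h, FGFR3 also held EGR matches, and KDR, MST1R, DDR1 and EPHB3 held none. Whether the motif bears on the changes was not tested.

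Partners of the receptors were followed by lists of ligands, ephrins, co-receptors, adaptors and negative regulators. Of 48 listed growth factor symbols outside the EGF family 40 had a feature, 29 were tested and 8 were above background on all arrays. Among the symbols, VEGFD and FIGF name the same gene. The list also holds FGF12 and FGF13, which stay inside cells and are not usual ligands of these receptors. At 48 h 6 of the 29 rose and 0 fell, against 9.88% of all features higher and 9.68% lower. Among the 6 were FGF13 and also FGF9, which was at background on every array. VEGFA, the ligand of KDR, scored 1.44, 1.40 and 1.41 at 0 h, 1.73 and 1.71 at 24 h, and 1.82, 1.87 and 1.88 at 48 h, so the groups did not overlap. It rose by 0.442 (SE 0.0330, limma adjusted p = 8.53e-06). PDGFA, a ligand of the PDGF receptors, rose from a mean of 0.688 ± 0.0738 (SD, n = 3) to 1.19 ± 0.0201 (SD, n = 3), by 0.504 (SE 0.0406, limma adjusted p = 1.37e-05). PDGFB rose by 0.394 (SE 0.0352, limma adjusted p = 2.76e-05) from a 0 h mean of 0.329, near the background limit. BDNF, the ligand of NTRK2, rose by 0.207 (SE 0.0410, adjusted p = 0.00530) from a mean at background. PDGFRA, PDGFRB and NTRK2 are among the listed receptors without a feature under their symbol.

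All 8 ephrins were tested, 4 were above background on all arrays, and 2 rose, against 9.88% of all features. EFNA1 scored 1.20, 1.17 and 1.26 at 0 h and 1.54, 1.55 and 1.49 at 48 h, and rose by 0.313 (SE 0.0361, limma adjusted p = 0.000154). EFNB2, which also guides vessel growth, rose by 0.189 (SE 0.0514, limma adjusted p = 0.0265). EFNA3 and EFNA4 differed by 0.0888 (SE 0.0371, adjusted p = 0.131) and 0.249 (SE 0.119, adjusted p = 0.188). Over 11 arrays, without the 0 h array on which EFNA4 was lowest, these differences were 0.0564 (adjusted p = 0.229) and 0.0645 (adjusted p = 0.163).

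Of 20 co-receptors and binding proteins 14 were tested, of which 4 rose and 1 fell, against 9.88% of all features higher and 9.68% lower. NRP2, a neuropilin that binds VEGF together with its receptors, scored 0.882, 0.863 and 0.840 at 0 h, 0.509 and 0.453 at 24 h, and 0.336, 0.308 and 0.299 at 48 h. It fell by 0.548 (SE 0.0327, limma adjusted p = 2.21e-06) and so came close to the background limit. IGFBP3, which binds insulin-like growth factors, rose by 0.358 (SE 0.0391, limma adjusted p = 0.000108). Its 0 h mean of 0.299 lay around the background limit, and it was above background on 8 arrays. SDC4, a heparan sulfate proteoglycan, rose by 0.392 (SE 0.0680, adjusted p = 0.00242), and IGF2R, which clears IGF2, by 0.168 (SE 0.0343, adjusted p = 0.00615).

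Of 36 adaptors and transducers 20 were tested, with 3 higher and 1 lower at 48 h, against 9.88% and 9.68% of all features (19.6% in either direction). SHC1, which links phosphorylated receptors to RAS, rose by 0.277 (SE 0.0385, limma adjusted p = 0.000563). SH2B1 and GRB7 rose by 0.130 (SE 0.0348, adjusted p = 0.0243) and 0.136 (SE 0.0390, adjusted p = 0.0339), and GRB14, an inhibitor of the insulin receptor, fell by 0.190 (SE 0.0583, adjusted p = 0.0448), or by 0.115 (adjusted p = 0.0258) over 11 arrays. Of 20 listed negative regulators and sheddases 11 had a feature and were tested. No feature carried the symbol of CBL, CBLB, CBLC or any of the listed PTPN and PTPR phosphatases. No score can be given for them, and whether features without a symbol cover them is not known here. Of the 11 tested limma called 0 over 13 arrays, with 2 (18.2%) at an unadjusted p under 0.05 against 31.0% of all features. Over 11 arrays 3 of them were higher, against 27.5% of all features called in either direction. LRIG1, which lowers receptor levels, differed by 0.103 (SE 0.0337, adjusted p = 0.0585), HGS by 0.121 (SE 0.0449, adjusted p = 0.0918), ADAM17, a sheddase, by 0.0966 (SE 0.0443, adjusted p = 0.169) and SH3KBP1 by -0.0536 (SE 0.0314, adjusted p = 0.287). Over 11 arrays ADAM17 rose by 0.146 (limma adjusted p = 0.00381), while LRIG1 differed by 0.0854 (adjusted p = 0.0713), HGS by 0.0666 (adjusted p = 0.134) and SH3KBP1 by -0.0501 (adjusted p = 0.295).

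**Figure D4:**
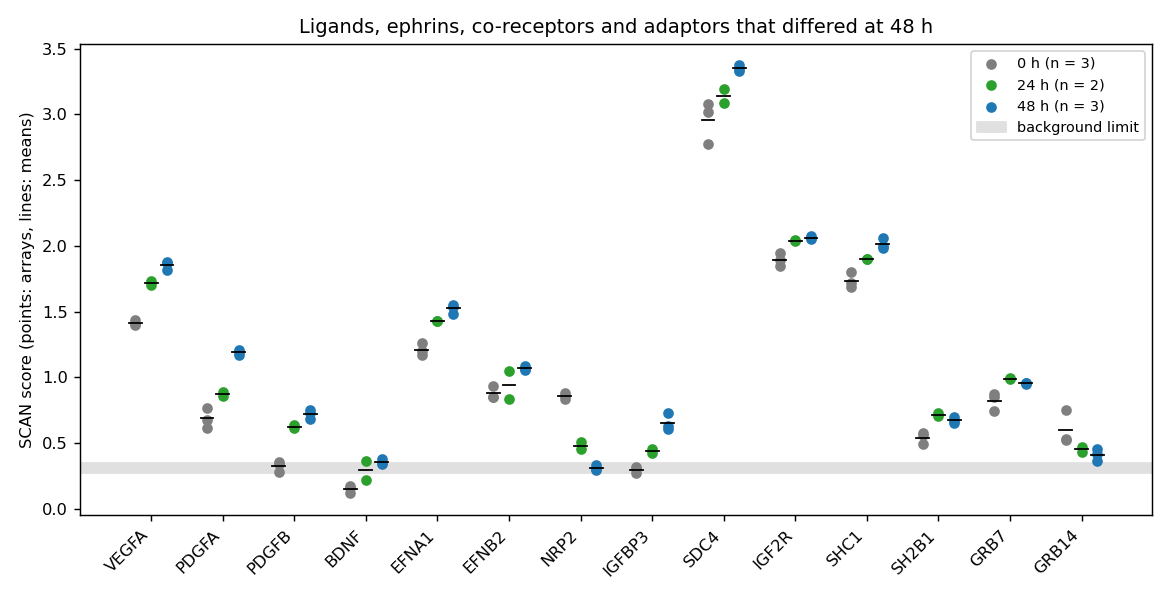
SCAN scores at 0 h (grey, n = 3), 24 h (green, n = 2) and 48 h (blue, n = 3) of the ligands, ephrins, co-receptors and adaptors named as called at 48 h, with 1 point per array and a line at the mean. The grey band spans the background limit. VEGFA, PDGFA and PDGFB lie higher at 48 h than at 0 h on every array, and NRP2 lies lower.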

How the data were processed

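Expression in starved H1975 cells was read on 13 GeneChip Human Gene 2.0 ST arrays. The authors processed every array separately with SCAN. The deposited file gives 1 standardised score per feature and array, and no step links the arrays. Which genome build the probe annotation used is not given in the sources used here. Columns of the study's result table were used to name features only, and 490 of its lines were held. EGF arrays and 8 and 12 h arrays were not analysed here.

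The table held 39937 features, of which 15426 had 1 platform symbol and 203 more were named by the study's result table, and the 12966 with a score over 0 on some array were tested. Each time point was 1 level of a linear model fitted in R 4.3.3 with limma 3.58.1, followed by eBayes, two-sided tests and Benjamini-Hochberg adjustment, with 5 residual degrees of freedom over 13 arrays and 4 over 11. The script was tested on simulated data. The number of arrays limits the precision, and the median SE at 48 h was 0.0409 over 13 arrays and 0.0360 over 11. The background limit was planned on olfactory receptors, but the annotation names 1 of them, so other silent families were used, a choice made after seeing the data.

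The members, the gene lists and the tests were chosen with earlier results of these data known. Values on every array are given for receptors above background on all arrays that were called at 48 h or whose call changed over 11 arrays. KDR, FGFR3 and the ROS1 feature were named in addition, after their values were seen. For other lists up to 4 genes with the smallest adjusted p are named, and HGF, MST1, PROS1, GAS6 and KITLG were named as ligands of described receptors. Alternatives covered the arrays left out, scaling, filters, array weights, the variance model, a block for the replicate number, the time points fitted and several features per symbol. Python 3.11.15 with numpy 2.4.6, pandas 2.3.3 and matplotlib 3.10.9 served for tables and plots.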

Additional observations from a re-analysis of the deposited data

How the results depend on the processing

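The 48 h differences of MET, MST1R, AXL, KDR, DDR1, EPHA1, EPHB3 and the ROS1 feature kept their direction and an adjusted p under 0.05 in all 18 alternatives run. FGFR3 was not called without 48 h replicate 2 and was not tested where features had to exceed background on at least 2 arrays. The count of receptors called at 48 h ran from 7 to 12 over the alternatives, and from 7 to 12 with 1 replicate left out at a time. At 24 h against 0 h the count of 6 ran from 0 to 7 with 1 replicate left out, with 2 without 24 h replicate 1 and 0 without 24 h replicate 3, and it was 1 when only the time points compared were fitted (1.81% of all features). At 48 h against 24 h the count of 0 became 5 over 11 arrays (10.5% of all features), 2 with quantile normalisation (2.53%), 2 with median centring (2.88%), 6 with array weights (10.5%), 6 with only the time points compared (10.7%), and 1 with the replicate block over 11 arrays (6.37%). EPHA2 and TYRO3 each passed at 48 h in 3 of the 18 alternatives, EPHA4 and FGFR4 in 4 each, all of them without 0 h replicate 1 or with array weights. The causes of these shifts were not tested. Without the block, deviations of arrays with the same replicate number at 0, 24 and 48 h correlated at -0.152 to 0.063. With only 2 or 3 arrays per time point, these values do not settle whether the numbers pair the arrays. With the replicate block over 13 arrays 8 receptors were called at 48 h (16.6% of all features) and 4 at 24 h (3.99%). Of the silent features the 0.99 quantile left 12 receptors above background throughout in place of 15, the 0.90 quantile 18, and a fixed limit of 0.2 also 18. Limits set on olfactory receptors were not run.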
